A study of Homo sapiens with 2 samples.

Results

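The 36 genes described here encode the enzymes and carriers that take glucose through glycolysis to pyruvate and lactate, together with genes of the pentose phosphate pathway, glycogen synthesis and the pyruvate dehydrogenase gate. They were chosen by symbol for these functions, with earlier results of these data known. Each had 1 row among the 60619 genes of the deposited tables. RNA was sequenced from HBEC-3KT, an established line of human bronchial epithelial cells immortalized with CDK4 and telomerase, after lentiviral transduction for 4 to 8 hours, blasticidin selection at 10 µg/mL and 4 to 5 days on gelatin-coated plates. The CBS group was transduced with pLenti6 carrying human CBS, which encodes cystathionine beta-synthase of the transsulfuration pathway, and the control group with pLenti6 alone. Both groups therefore carried integrated vector and had been through blasticidin, and the labels name no separate clones. The series was designed to ask whether CBS affects Polycomb repressive complex 2, a histone methyltransferase, and the genes of glucose metabolism are a separate readout of the same libraries.

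There was 1 library per group, and their estimated counts summed to 20785957 (CBS) and 20433062 (empty vector). No test between the conditions was possible, and a difference between these libraries cannot be told apart from a difference between any 2 cultures. CBS itself was counted 3669 times in its own library and 280 times in the control, which matches the labels. CBSL, its near-identical copy, had 4378 and 343 counts in the same order, so the CBS row alone may not hold all CBS reads. All 12 listed markers of bronchial epithelium, basal and general, were above the filter on low counts in these libraries, but they differed in level. Of the markers of other cells, COL1A2, COL3A1, DCN and LUM of fibroblasts, PTPRC, CD3E and LYZ of immune cells and KDR and TEK of endothelium had no count in either library. For these 12 epithelial markers the summed level was 10970 CPM (counts after scaling to library size) in the CBS library and 13578 in the control. The simple keratins KRT8 and KRT18 held part of that sum, at 1555 and 2118 CPM with CBS. In the control they were at 1128 and 1321 CPM, so the sum does not give the level of basal markers alone. The basal keratins KRT14, KRT15, KRT17 and KRT5 had log2 ratios of CBS over control of -2.15, -1.94, -1.49 and -0.72, whereas KRT8, KRT18, EPCAM and NGFR had 0.46, 0.68, 0.54 and 0.93, and TP63 had -0.04. For 8 fibroblast markers the sum was 6.52 CPM in the CBS library and 14.0 in the control. The sums in the same order were 4.50 and 1.36 CPM for 7 endothelial markers. For 8 immune markers they were 39.8 and 124.7 CPM, where CD68 held most of the sum. COL1A1 held most of the fibroblast sum, with 132 counts with CBS and 270 in the control. CDH5 held most of the endothelial sum in the CBS library, with 87 counts there and 7 in the control. The part of these marker differences, or of any other cells, in the results below was not tested.

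Glycolysis splits glucose into pyruvate through a chain of cytosolic enzymes, many of which exist as isozymes from separate genes. Hypoxia-inducible factors (HIF) and MYC are known to raise transcription of many of these genes, and proliferating epithelial cells in culture commonly turn much of their glucose into lactate. The pentose phosphate pathway branches off after the hexokinase step and supplies NADPH and ribose phosphate, while the pyruvate dehydrogenase complex passes pyruvate into the mitochondrial tricarboxylic acid cycle.

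Most of the chosen genes of glycolysis and of glucose and lactate transport were lower in the CBS library. The 3 chosen genes of the pentose phosphate pathway and both subunits of pyruvate dehydrogenase E1 were higher. Of the 36 genes, 35 passed a filter of at least 10 counts in 1 library and a mean of 1 CPM. PDK4 did not pass, with 8 counts for CBS and 2 for the control. Folds divide the CBS by the empty-vector level after TMM scaling, are given as log2 with a prior count of 5, and each has an exact 95% interval for the ratio of counts. These intervals cover counting error only. The median log2 fold of the 35 genes was -0.32, beside 0.00 over all 13304 genes above the filter. The interval lay below a ratio of 1 for 24 of the 35 genes, where 31.1% of all genes had such an interval. It lay above 1 for 7 genes, beside 31.6% of all genes, and held 1 for 4 genes. A fold of at least 2 with an interval that excluded 1 was reached by 4 genes on the lower side, beside 5.28% of all genes, and by none on the higher side, beside 1.41%. The downward shift was thus broad and mostly shallow, since 20 of the 24 lower genes differed by less than 2-fold. Fewer expressing cells and less RNA per cell cannot be told apart in bulk libraries.

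**Figure D1:**
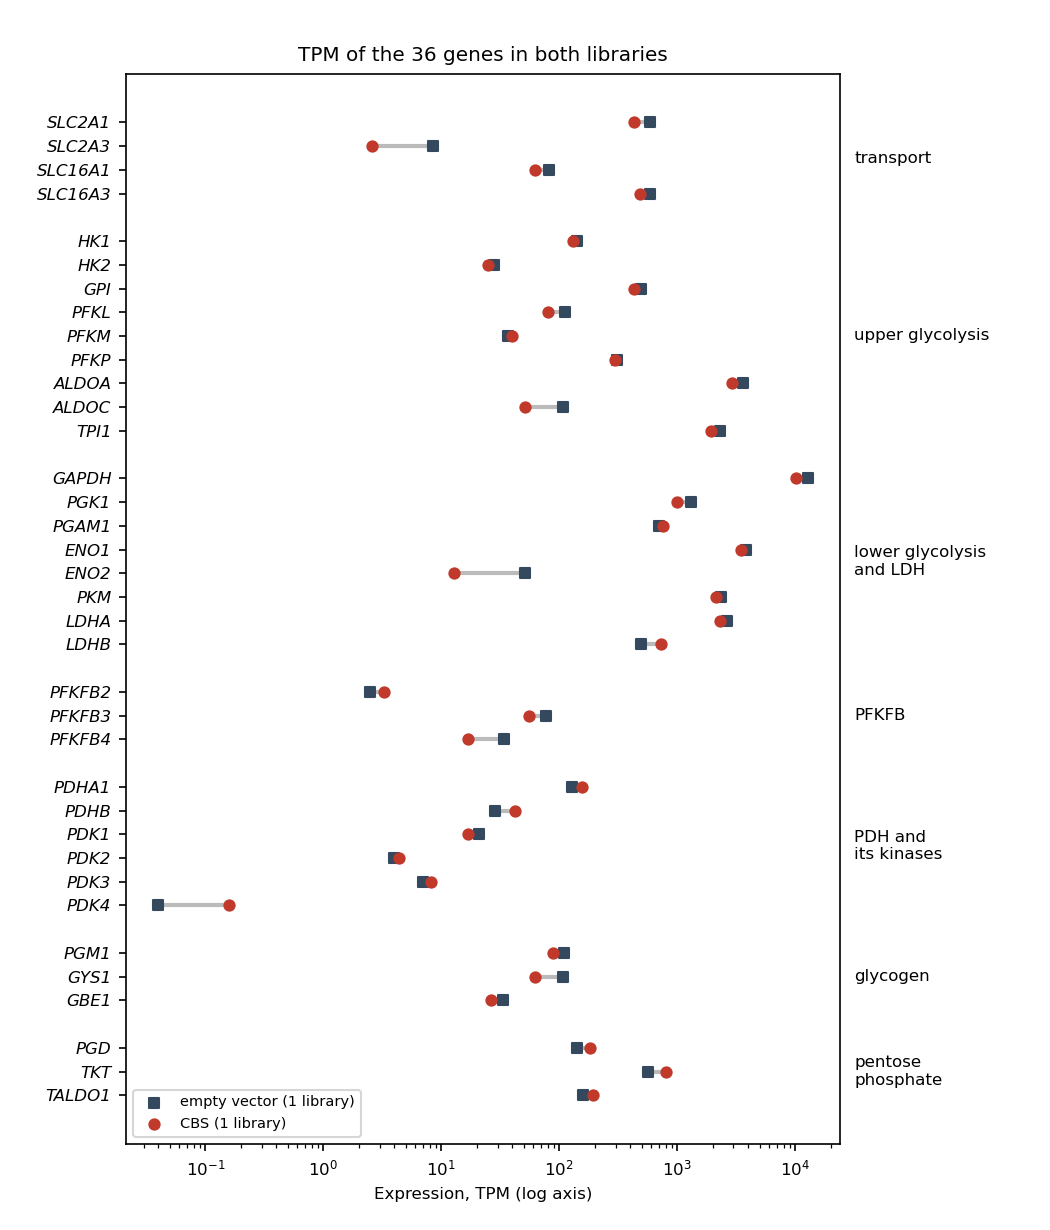
Expression of the 36 genes in TPM (log axis), with 1 square for the empty-vector library and 1 circle for the CBS library, grouped by role. GAPDH is the most abundant at 12733 TPM in the control and 10169 with CBS, and the widest gaps among genes above the filter are those of ENO2 and SLC2A3.

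On the scale of TPM, a measure of transcript level that is corrected for length and sums to the same total in each library, the 36 genes together made up 3.39% of the empty-vector library and 2.91% of the CBS library. The 17 glycolytic enzymes, lactate dehydrogenases included, accounted for most of this, with 31239 TPM in the control and 26476 TPM with CBS. The 4 transporters summed to 1259 and 973 TPM. In the opposite direction, the 3 pentose phosphate genes summed to 866 TPM in the control and 1180 TPM with CBS. GAPDH alone, the dehydrogenase that makes the first NADH of the pathway, exceeded the next most abundant gene, ENO1, by more than 2-fold in both libraries, and both genes were lower with CBS.

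Glucose enters these cells through facilitative transporters, and both measured members were lower in the CBS library. SLC2A1, which encodes the basal transporter GLUT1 on chromosome 1 (42925375 to 42959173, GRCh38), had 11552 counts with CBS against 16071 in the control, a log2 fold of -0.57 (-0.61 to -0.54). SLC2A3, which encodes the high-affinity transporter GLUT3 on chromosome 12 (7919230 to 7936275), had 126 counts with CBS against 380 in the control, a log2 fold of -1.65 (-1.99 to -1.40). GLUT3 transcripts were far fewer than those of GLUT1, at 2.59 TPM with CBS and 8.55 TPM in the control, against 427 and 584 TPM for SLC2A1. SLC2A14, a close copy of SLC2A3, had 0 counts with CBS and 1 in the control, so hardly any reads were assigned to that copy. The lower fold of SLC2A3 than of SLC2A1 exceeded counting error, with a difference in log2 fold of -1.12 (-1.41 to -0.82).

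Lactate leaves through monocarboxylate transporters, and both were lower in the CBS library. SLC16A3, which encodes the exporter MCT4, had 13717 counts with CBS and 16939 in the control and a log2 fold of -0.40 (-0.43 to -0.37). SLC16A1, which encodes MCT1, a carrier that works in both directions, had 3437 and 4471 counts and a log2 fold of -0.48 (-0.54 to -0.41). SLC16A1 minus SLC16A3 was -0.08 (-0.15 to -0.003). With the trend in GC content and transcript length removed, SLC16A1 was at -0.56 and SLC16A3 at -0.16, so the gap between them depended on that setting. MCT4 was the more abundant by TPM, at 480 against 62.8 in the CBS library and 585 against 81.7 in the control. Of the other carriers of this family on the list, SLC16A7 had 297 counts with CBS and 237 in the control, and its interval held a ratio of 1.

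The upper part of glycolysis spends ATP to make triose phosphates. Here 8 of 9 intervals lay below a ratio of 1, beside 31.1% of all genes. The hexokinases, which trap glucose as glucose-6-phosphate, were slightly lower. HK1 had 6754 and 7323 counts in the CBS and control libraries and a log2 fold of -0.21 (-0.26 to -0.17), and HK2, the isozyme typical of tumours and growing cells, had 2076 and 2327 counts, for a log2 fold of -0.26 (-0.35 to -0.18). The interval of their difference held 0, with HK2 minus HK1 at -0.05 (-0.15 to 0.05). GPI, the next enzyme, which isomerizes glucose-6-phosphate, had 13401 and 15078 counts and a log2 fold of -0.27 (-0.30 to -0.23).

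Phosphofructokinase, the committed step, showed a different value for each of its isozymes. PFKL, the liver type, had 3152 counts with CBS and 4574 in the control, a log2 fold of -0.64 (-0.70 to -0.57). PFKM, the muscle type, had 1457 and 1208 counts and a log2 fold of 0.17 (0.06 to 0.28), and it was the only upper-glycolysis gene among the 9 with an interval above a ratio of 1. PFKP, the platelet type and the most abundant by TPM, had 10720 and 10854 counts and a log2 fold of -0.12 (-0.16 to -0.08). That small difference for PFKP became 0.00897 once the trend of folds on transcript GC content and length was removed. The isozymes differed from each other beyond counting error, by 0.81 (0.68 to 0.94) for PFKM minus PFKL and by 0.52 (0.44 to 0.60) for PFKP minus PFKL.

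Aldolase, which cleaves fructose-1,6-bisphosphate, was lower in both of its expressed forms. ALDOA, the main form, had 54194 counts with CBS and 67724 in the control and a log2 fold of -0.42 (-0.44 to -0.40). ALDOC, the form best known from brain, on chromosome 17 (28573115 to 28577264), had 1188 and 2536 counts and a log2 fold of -1.19 (-1.29 to -1.09), a 2.28-fold lower level. ALDOC made up 2.94% of aldolase TPM in the control and 1.72% with CBS; shares of TPM are estimates without a counting interval. TPI1, which interconverts the triose phosphates, had 23377 and 28329 counts, for a log2 fold of -0.37 (-0.40 to -0.35).

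Lower glycolysis, which yields ATP and pyruvate, held the gene with the lowest fold of all 36. ENO2, the gamma or neuronal enolase on chromosome 12 (6913745 to 6923698), had 377 counts with CBS against 1327 in the control, a log2 fold of -1.90 (-2.08 to -1.75) and a 3.73-fold lower level. ENO2 is also used as a marker of neuroendocrine cells, and 7 other markers of that type summed to 0.281 CPM with CBS and 0.904 CPM in the control, with GRP and INSM1 uncounted in both libraries. ENO1, the ubiquitous alpha enolase, had 87214 and 96998 counts and a log2 fold of -0.25 (-0.27 to -0.24), so ENO2 was lower than ENO1 by a further -1.66 (-1.83 to -1.50). By TPM ENO2 was 12.7 against 3465 for ENO1 with CBS and 51.7 against 3801 in the control, a minor share of enolase transcripts in both libraries. ENO3, the muscle enolase, had 51 and 82 counts.

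The remaining genes of the lower part spread from no measurable difference to a log2 fold of -0.54. GAPDH (chromosome 12, 6533927 to 6538374) had 163810 counts with CBS and 207092 in the control and a log2 fold of -0.44 (-0.45 to -0.43). PGK1, which makes the first ATP of the payoff phase, had 15754 and 21407 counts and a log2 fold of -0.54 (-0.57 to -0.51). PGAM1, the mutase between PGK1 and enolase, had 19702 and 18458 counts, and its interval for log2 fold, -0.03 to 0.03, held no difference. PGAM1 was thus the exception within an otherwise lower chain, and PGAM4, its near-identical copy, had no count in either library. PKM, the pyruvate kinase of most tissues, had 69602 and 78235 counts and a log2 fold of -0.27 (-0.28 to -0.25). Gene-level tables do not separate the M1 and M2 forms of this kinase.

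Lactate dehydrogenase differed in direction between its subunits. LDHA, whose product favours conversion of pyruvate to lactate, had 51778 counts with CBS and 62579 in the control and a log2 fold of -0.37 (-0.39 to -0.35). LDHB, whose product is typical of tissues that use lactate, on chromosome 12 (21635342 to 21757857), had 11036 and 7486 counts, and its log2 fold was 0.46 (0.42 to 0.50), the highest of the 35 genes. The difference, LDHB minus LDHA, was 0.83 (0.79 to 0.88). In TPM, LDHB made up 15.7% of lactate dehydrogenase transcripts in the control library and 24.2% in the CBS library, while the summed level of the step was 3138 and 3027 TPM.

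**Figure D2:**
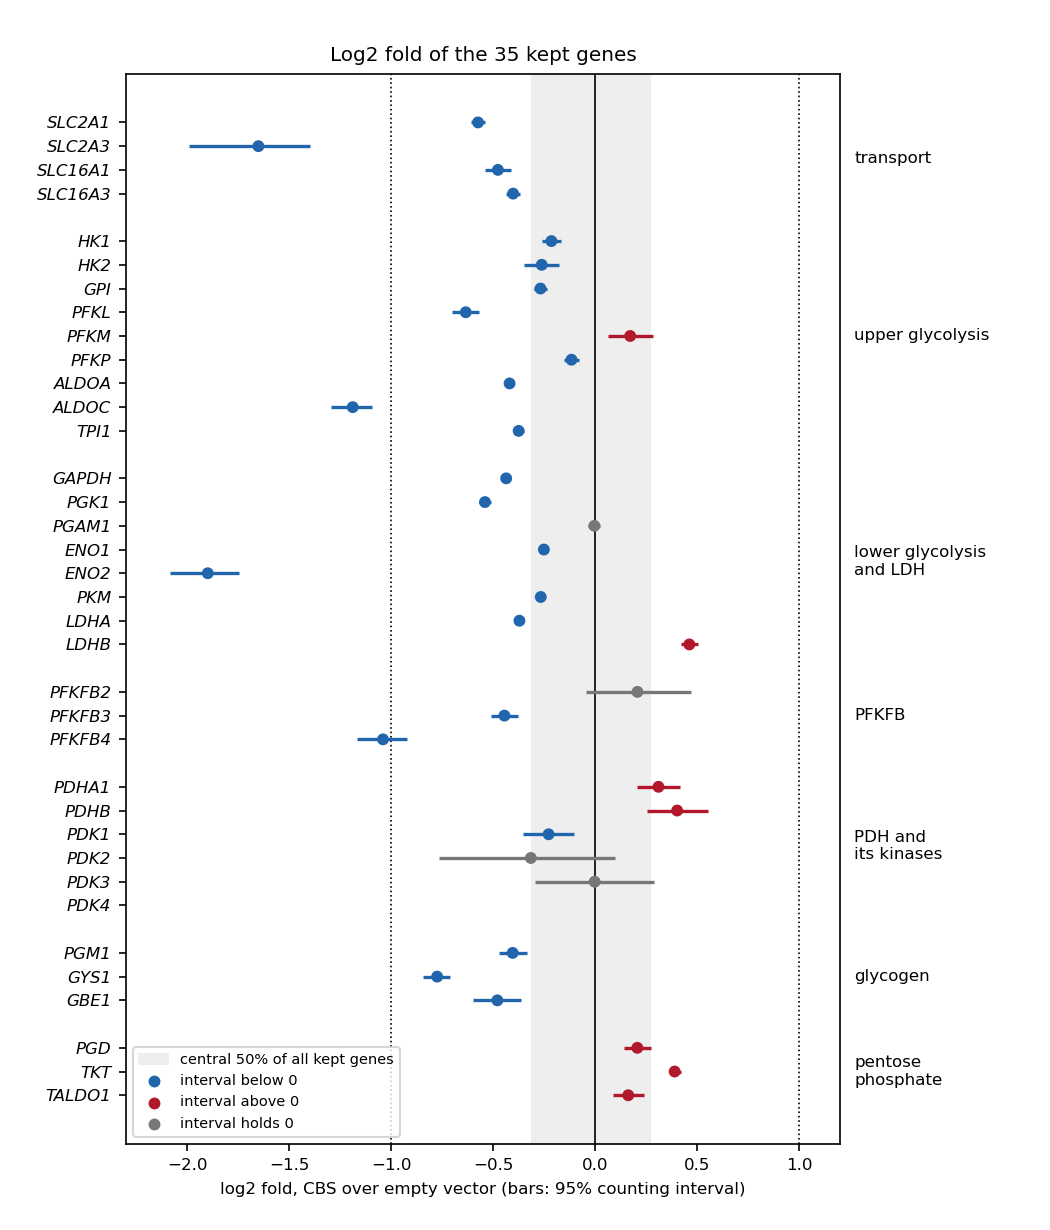
Log2 fold of the 35 genes above the filter, CBS over empty vector, with 95% counting intervals. The grey band holds the central 50% of all 13304 genes, from -0.31 to 0.27, and dotted lines mark a 2-fold difference. Most glycolysis, transport and glycogen genes lie below 0, with ENO2, SLC2A3, ALDOC and PFKFB4 beyond the 2-fold line, and the 3 pentose phosphate genes lie above 0.

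The PFKFB enzymes make and break fructose-2,6-bisphosphate, the strongest allosteric activator of phosphofructokinase. PFKFB3, the form with the highest kinase activity, had 3363 counts with CBS and 4279 in the control and a log2 fold of -0.45 (-0.51 to -0.38). PFKFB4, on chromosome 3 (48517684 to 48562015), had 801 and 1544 counts and a log2 fold of -1.04 (-1.17 to -0.92). PFKFB4 sat at the 2-fold line, and its log2 fold was -0.97 with plain library totals, -0.98 as log2(TPM + 1) and -0.94 with the GC and length trend removed. PFKFB2, the form best known from heart, had 285 and 230 counts and a log2 fold of 0.21, with an interval of -0.05 to 0.47 that held no difference. PFKFB4 was lower than PFKFB3 by -0.60 (-0.74 to -0.46), and its share of PFKFB transcripts in TPM was 29.9% in the control and 22.1% with CBS.

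At the entry of pyruvate into mitochondria, both subunits of the E1 enzyme of pyruvate dehydrogenase were higher in the CBS library. PDHA1, the alpha subunit encoded on the X chromosome, had 1737 counts with CBS and 1308 in the control and a log2 fold of 0.31 (0.21 to 0.42). PDHB, the beta subunit, had 877 and 619 counts and a log2 fold of 0.40 (0.25 to 0.56). Both subunits form one heterotetramer, and the interval of the difference between their folds held 0 (PDHB minus PDHA1 0.09, -0.09 to 0.27).

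The pyruvate dehydrogenase kinases switch that enzyme off by phosphorylation, and of the kinases only PDK1 had an interval that excluded a ratio of 1. PDK1, a known HIF target, had 1008 counts with CBS and 1104 in the control and a log2 fold of -0.23 (-0.35 to -0.11). PDK3 had 203 and 190 counts, with an interval from -0.30 to 0.29. PDK2 had 85 and 100 counts, with an interval from -0.77 to 0.10. For PDK2 and PDK3, differences within these intervals were not detectable at this depth. PDK1 held 65.5% of PDK transcripts in TPM in the control and 57.2% with CBS. With counts per transcript length in place of TPM, its share was 52.7% in the control and 50.4% with CBS.

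**Figure D3:**
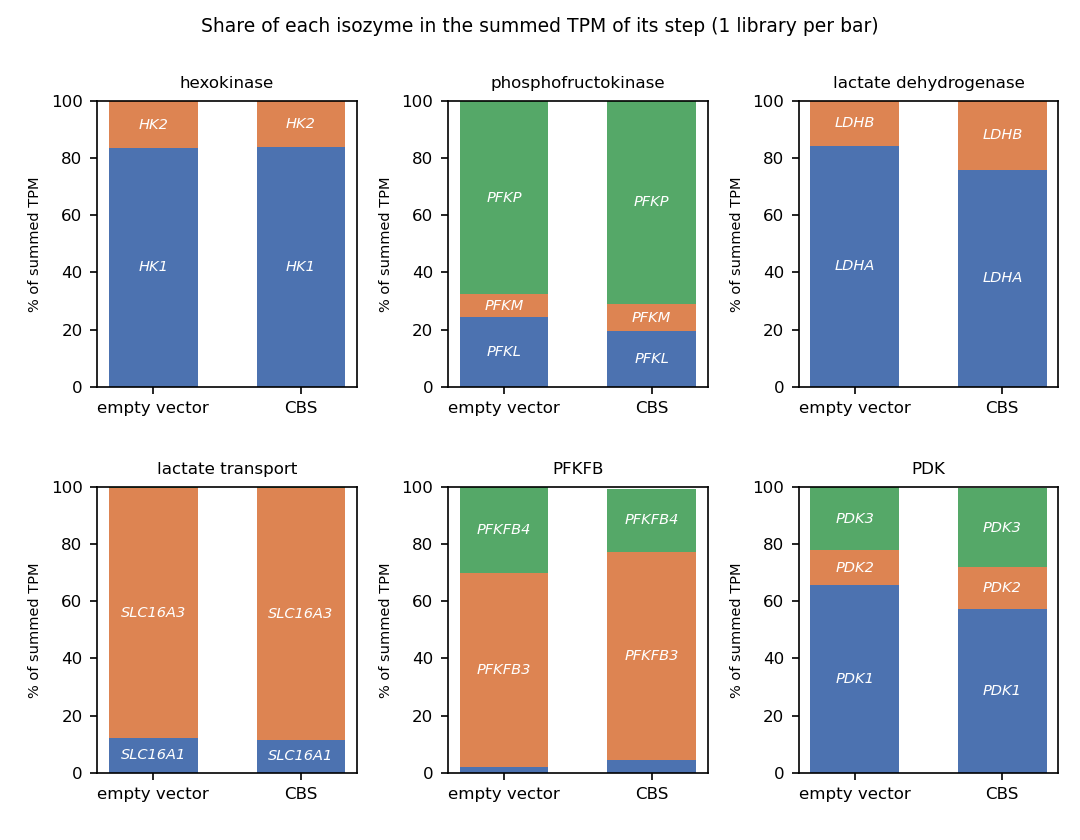
Share of each isozyme in the summed TPM of its step, with 1 bar per library and forms under 1 TPM left out. LDHB takes 15.7% of lactate dehydrogenase in the control and 24.2% with CBS, and PFKL takes 24.4% and 19.4% of phosphofructokinase, while HK2 takes 16.3% and 16.1% of hexokinase.

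The 3 chosen genes that divert glucose into glycogen were all lower in the CBS library. GYS1, the glycogen synthase of non-hepatic tissue on chromosome 19 (48968125 to 48993310), was counted 2979 times with CBS and 4765 times in the control, with a log2 fold of -0.77 (-0.84 to -0.71). PGM1, the phosphoglucomutase that links glucose-6-phosphate to glycogen, had 3125 and 3866 counts and a log2 fold of -0.41 (-0.47 to -0.34). GBE1, the branching enzyme, had 1028 and 1341 counts and a log2 fold of -0.48 (-0.60 to -0.36). PGM2, a phosphopentomutase of the same family, had 1417 and 1647 counts and a log2 fold of -0.31 (-0.42 to -0.21).

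All 3 chosen genes of the pentose phosphate pathway were higher in the CBS library, each by less than 1.5-fold. TKT, the transketolase of the non-oxidative branch on chromosome 3 (53224707 to 53256052), was counted 22930 times with CBS and 16353 times in the control, with a log2 fold of 0.39 (0.36 to 0.42). TALDO1, the transaldolase that works beside it, had 3083 and 2574 counts and a log2 fold of 0.16 (0.09 to 0.24). PGD, which produces NADPH in the oxidative branch, had 4183 and 3386 counts and a log2 fold of 0.21 (0.14 to 0.27). After removing the GC and length trend, these values were 0.50 for TKT, 0.25 for TALDO1 and 0.23 for PGD.

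Promoter sequences were examined because the glycolytic genes moved together and because HIF binds the core letters ACGTG or GCGTG. The upstream bases of ENO2 and ENO1 and of SLC2A1 are shown since enolase and glucose transport held the lowest folds, and those of ALDOC, PFKFB4 and TKT, chosen after their values were seen, add the other genes at least 2-fold lower with an entry and one that was higher. Each is the 250 bases before the RefSeq transcription start in GRCh38.p14, read 5′ to 3′ on the gene's strand, with matches to ACGTG or GCGTG on either strand in capitals (CACGT and CACGC are the same cores on the other strand). SLC2A3, SLC16A1 and PFKFB2 are named only.
ENO2, chr12:6914330-6914579, plus strand: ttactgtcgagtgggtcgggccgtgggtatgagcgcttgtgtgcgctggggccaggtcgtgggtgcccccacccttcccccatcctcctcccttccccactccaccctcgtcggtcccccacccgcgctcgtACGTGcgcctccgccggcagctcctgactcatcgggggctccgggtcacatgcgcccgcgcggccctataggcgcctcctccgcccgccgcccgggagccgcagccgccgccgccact
ENO1, chr1:8878687-8878936, minus strand: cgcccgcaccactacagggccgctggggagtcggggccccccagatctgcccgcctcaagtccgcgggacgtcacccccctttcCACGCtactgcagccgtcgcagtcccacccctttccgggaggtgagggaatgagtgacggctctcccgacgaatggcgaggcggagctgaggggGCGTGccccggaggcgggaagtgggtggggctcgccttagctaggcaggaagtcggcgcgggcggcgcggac
SLC2A1, chr1:42958869-42959118, minus strand: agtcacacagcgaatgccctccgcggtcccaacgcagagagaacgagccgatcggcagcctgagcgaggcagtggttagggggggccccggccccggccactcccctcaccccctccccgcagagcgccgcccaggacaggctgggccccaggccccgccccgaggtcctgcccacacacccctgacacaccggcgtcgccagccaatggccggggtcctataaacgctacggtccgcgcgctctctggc
ALDOC, chr17:28576896-28577145, minus strand: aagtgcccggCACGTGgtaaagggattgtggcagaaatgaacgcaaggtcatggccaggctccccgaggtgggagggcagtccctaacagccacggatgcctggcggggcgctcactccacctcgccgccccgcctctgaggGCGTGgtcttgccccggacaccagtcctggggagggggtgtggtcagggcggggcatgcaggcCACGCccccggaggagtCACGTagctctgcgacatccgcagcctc
PFKFB4, chr3:48556804-48557053, minus strand: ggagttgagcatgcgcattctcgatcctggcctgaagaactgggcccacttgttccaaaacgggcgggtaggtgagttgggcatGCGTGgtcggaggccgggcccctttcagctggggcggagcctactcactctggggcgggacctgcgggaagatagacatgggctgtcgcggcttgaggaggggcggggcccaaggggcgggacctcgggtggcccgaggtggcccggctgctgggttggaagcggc
TKT, chr3:53256023-53256272, minus strand: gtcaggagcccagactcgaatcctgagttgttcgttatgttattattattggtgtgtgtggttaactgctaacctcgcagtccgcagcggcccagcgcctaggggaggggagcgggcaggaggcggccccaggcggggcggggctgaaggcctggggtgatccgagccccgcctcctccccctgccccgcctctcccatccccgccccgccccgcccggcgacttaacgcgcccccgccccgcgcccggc

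The ENO2 promoter held 1 match, the letters ACGTG beginning 118 bases before the start. The ALDOC promoter held 5, among them CACGTG, an E-box of the kind MYC binds, which counts as a match on each strand. ENO1 held 2 and PFKFB4 held 1, SLC2A1 had its single match after the start, at position 26, and TKT had none in its window. Over the full windows, which run from 250 bases before to 50 after each start, 39 of 63 member windows held ACGTG or GCGTG on either strand (61.9%), beside 48.4% of 35116 windows of all genes. The letters ACGTG alone were in 38.1% of member windows and 21.4% of all windows, and CACGTG, which contains ACGTG, was in 12.7% and 7.26%. Counted by gene, with any of its windows, 29 of 33 members held either core (87.9%), beside 52.4% of 27305 genes. The members had 63 windows for 33 genes and all genes had 35116 for 27305. A member thus had more windows on average in which to match, so these 2 shares are not on equal terms. The windows of all genes also include genes below the filter in these libraries. No background matched for expression or GC content was compared, so none of these shares shows an excess particular to the members. Of the 4 members without one, 3 were above the filter, with log2 folds of 0.39 for TKT, 0.16 for TALDO1 and an interval holding no difference for PGAM1. The 29 members with a core included the higher genes LDHB, PDHA1, PDHB, PFKM and PGD. The 3 without one are too few for a comparison of folds, and the search was itself prompted by the folds. A relation between these letters and the folds was not tested. A match to these letters is a description of the sequence and no evidence of binding.

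Other genes of the same pathways, listed by function, were measured beside the 36. These lists, too, were chosen with earlier results of these libraries known, so their directions are no independent evidence. Of 27 further genes of glycolysis and gluconeogenesis, mostly isozymes of other tissues, 8 were above the filter. Among them 2 intervals lay below a ratio of 1 and 2 above, beside 31.1% and 31.6% of all genes, and 4 held it. PCK2, a mitochondrial enzyme of gluconeogenesis, was at -0.66 (-0.79 to -0.55), while PGAM5, a mitochondrial phosphatase despite its name, was at 0.47 (0.35 to 0.59) and G6PC3, a glucose-6-phosphatase, at 0.27 (0.16 to 0.38). Of 21 further transport genes, 13 were above the filter. The interval lay below a ratio of 1 for 5 (38.5%, beside 31.1% of all genes) and above it for none, beside 31.6%. TXNIP, which pulls glucose transporters off the cell surface, had 1995 counts with CBS and 3942 in the control and a log2 fold of -1.08 (-1.16 to -1.003). ARRDC4, its relative with a similar role, was at -0.80 (-0.96 to -0.64), SLC2A6, a glucose carrier of internal membranes, at -0.57 (-0.80 to -0.35), and BSG, the chaperone of MCT1 and MCT4, at -0.32 (-0.35 to -0.29).

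Beyond the 3 chosen pentose phosphate genes, 10 of 13 listed passed the filter. Of their intervals 6 lay above a ratio of 1, beside 31.6% of all genes, and 2 lay below it, beside 31.1%. Their median was 0.29 on the log2 scale. RPIA, which makes ribose-5-phosphate, had 164 counts with CBS and 78 in the control and a log2 fold of 0.93 (0.58 to 1.38). SHPK, which phosphorylates sedoheptulose, was at 0.60 (0.41 to 0.81) and PRPS1, which makes the nucleotide precursor PRPP, at 0.32 (0.17 to 0.47). H6PD, the form of the endoplasmic reticulum, was at -0.52 (-0.70 to -0.35). PGLS, the other gene with an interval below 1, was named after its value was seen and was at -0.30 (-0.41 to -0.19).

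Around pyruvate dehydrogenase, 12 of 16 listed genes passed the filter. Here 9 intervals lay above a ratio of 1, beside 31.6% of all genes, and 2 lay below it, beside 31.1%. The median of this list was 0.44 on the log2 scale. MPC1, a subunit of the carrier that brings pyruvate into mitochondria, had 257 counts with CBS and 94 in the control, a log2 fold of 1.31 (1.01 to 1.71). PDP2, a phosphatase that reactivates pyruvate dehydrogenase, was at 0.64 (0.43 to 0.86) and ME1, the cytosolic malic enzyme, at 0.75 (0.55 to 0.97). GPT2, the mitochondrial alanine transaminase, was at -0.77 (-0.89 to -0.67). Of the 20 enzymes and subunits of the tricarboxylic acid cycle, 17 had an interval above a ratio of 1, beside 31.6% of all genes. The other 3 lay below, beside 31.1%, and the median was 0.23. IDH3A was at 0.85 (0.74 to 0.97), SUCLG1 at 0.67 (0.52 to 0.83) and FH at 0.63 (0.52 to 0.74), and IDH2 was at -0.66 (-0.91 to -0.44). The higher values of PDHA1 and PDHB therefore stood beside higher values of most genes downstream of them.

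Glycogen genes outside the chosen 3 showed no common direction, with 17 of 23 above the filter. The interval lay below a ratio of 1 for 6 (35.3%, beside 31.1% of all genes), above it for 6 (beside 31.6%), and held it for 5. PPP1R3E and PPP1R3B, which target phosphatase to glycogen, were at -0.96 (-1.42 to -0.60) and -0.84 (-1.12 to -0.59), while GYG1, the primer glycogenin, was at 0.56 (0.41 to 0.73).

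**Figure D4:**
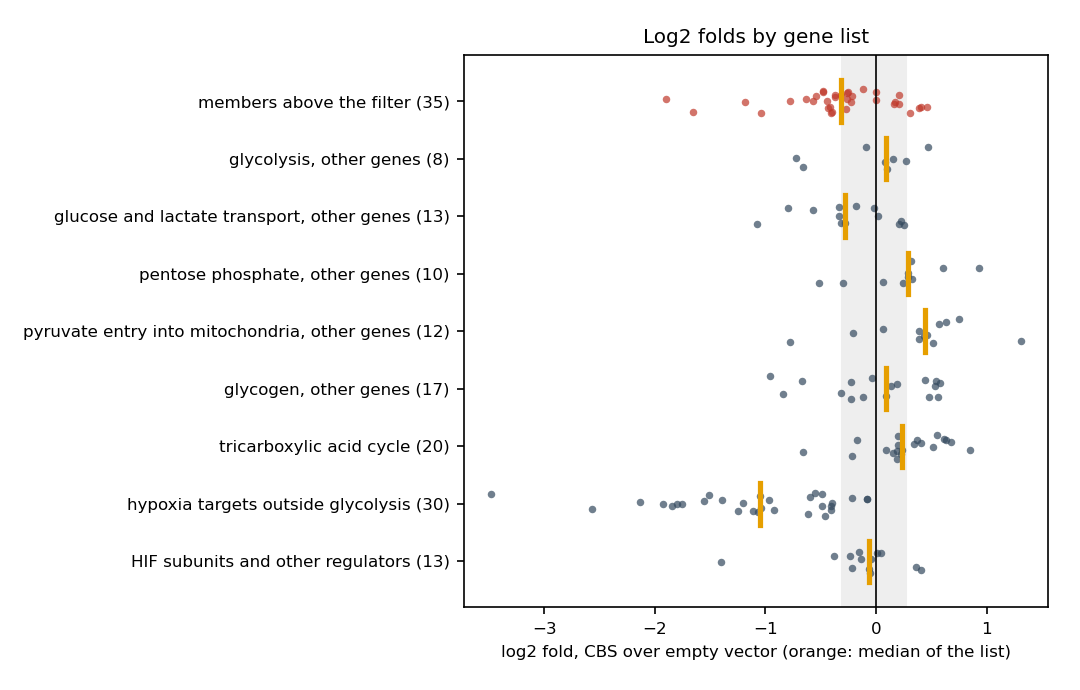
Log2 folds of the 35 genes (top row) and of related gene lists, 1 point per gene above the filter, with the number of genes in brackets and the median in orange; the vertical line is the median of all 13304 genes and the grey band their central 50%. The medians run from -1.05 for hypoxia targets outside glycolysis to 0.44 for genes of pyruvate entry, with -0.32 for the 35 genes.

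Hypoxia targets outside glycolysis had a lower median than the 35 genes, at -1.05. All 30 listed passed the filter. Of their intervals 29 lay below a ratio of 1, beside 31.1% of all genes. On the lower side 16 folds reached 2, beside 5.28% of all genes. The list was chosen with earlier results of these libraries known, so its direction is no independent evidence. Of 16 HIF subunits and other regulators, 13 were above the filter. Here 7 intervals lay below a ratio of 1 (53.8%, beside 31.1% of all genes), 2 above (beside 31.6%), and 4 held it. ARNT2, a HIF partner, was at -1.40 (-1.78 to -1.12), EPAS1, which encodes HIF-2 alpha, at -0.38 (-0.45 to -0.32) and MLX, a partner of the glucose-sensing factors, at 0.40 (0.30 to 0.51). HIF1A, named after its value was seen, had 33375 counts with CBS and 32556 in the control, a log2 fold of -0.06 (-0.08 to -0.04). Its protein, which is controlled mainly by degradation, was not measured. As log2(TPM + 1), HIF1A was at 0.04, EPAS1 at -0.09, ARNT2 at -0.82 and MLX at 0.65, so the direction of HIF1A and the size of the others depended on the measure.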

How the data were processed

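The authors deposited 2 tables, one of expected counts (fractional estimates of reads per gene) and one of TPM, scaled by the authors to transcript length and to the same total in each library. Trimmomatic 0.39, STAR 2.6.1d, RSEM 1.3.2 and GRCh38 appear in the submitters' processing notes, with no roles given. The annotation release, the strandedness and the read layout are not given in the sources used here. Expected counts were rounded, and 13304 genes with at least 10 counts in 1 library and a mean of 1 CPM were kept. TMM factors from those genes (edgeR 4.0.16, R 4.3.3, no model fitted) were 1.03 for CBS and 0.975 for the empty vector. Log2 folds carry a prior count of 5. Exact 95% intervals (Clopper-Pearson, conditional binomial) were made without it. Intervals for differences between 2 genes are Woolf intervals of the odds ratio, for 12 pairs, with no adjustment. Intervals and counts of calls compare the 2 libraries, not the conditions, and PCR reads are not independent molecules.

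The members and lists were chosen with earlier results of these data known. All 36 members are named. From each other list, up to 4 genes with the largest absolute log2 fold, with 100 counts or more in 1 library and an interval excluding 1, are named, with further isozymes of a member's step above 1 TPM. Some genes this takes are not reported here. STBD1 was not matched by symbol. Lists of cell type markers are given as sums, and the single markers named for their level were chosen after their values were seen. Transcript GC content and length were those of the longest GENCODE 29 transcript per gene, matched for 99.4% of kept genes, and their trend was removed by lowess (span 0.3, statsmodels 0.14.6). Promoter windows are from RefSeq (GRCh38.p14). Alternatives were DESeq2 1.42.0 size factors, plain totals, TPM as log2(TPM + 1), prior counts of 1 and 20, no filter, a filter of 100 counts, pseudogene rows added, the trend removed, and folds of 1.5 and 4. In simulated data for CBS over empty vector, intervals held the true ratio for 95.4% of 13111 unchanged genes.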

Additional observations from a re-analysis of the deposited data

How the results depend on the processing

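With 1 library per group, nothing here shows how cultures vary, and no replicate could be left out. No paired analysis was possible because each group held 1 library. The median log2 fold of the genes was -0.32 and stayed negative throughout, at -0.25 with plain library totals, -0.20 as log2(TPM + 1) and -0.25 after removing the GC and length trend. The median over all genes above the filter moved as well, from 0.00 to 0.07 with plain totals and 0.09 as log2(TPM + 1). At least 2-fold lower were 4 genes, 3 with plain totals, TPM or the trend removed, 6 at a threshold of 1.5-fold and 0 at 4-fold. No gene was at least 2-fold higher under any of these settings. Intervals lay below a ratio of 1 for 24 genes under each scaling and filter tried, and above it for 7, or 9 with plain totals. Single values left their own counting interval for 21 of 35 genes with plain totals, 24 with TPM and 18 with the trend removed, and 1 more, PFKP, changed sign to 0.00897. Added pseudogene rows, at most 0.834% of a gene's sum (LDHA), moved none out of its interval. With counts per transcript length in place of TPM, the change in the share of PDK2 among PDK transcripts reversed to -2.16 percentage points. At this depth PDK4 gave no usable fold.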

Other observations

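GAPDH, TPI1, ENO2 and SLC2A3 lie within a short stretch of chromosome 12, from 6533927 to 7936275. All were lower with CBS, at log2 folds of -0.44, -0.37, -1.90 and -1.65, as were most glycolytic members on other chromosomes. On the same chromosome outside this stretch, LDHB was at 0.46 and PFKM at 0.17. Other genes of the stretch were not examined, and a relation between position and fold was not tested. The measures disagreed for PDK2, which had 85 counts with CBS and 100 in the control but 4.35 and 3.94 TPM, and PGAM1, with an interval of -0.03 to 0.03 on counts, was at 0.12 as log2(TPM + 1). Among all 36 genes, GAPDH had 163810 and 207092 counts, so values expressed relative to GAPDH would each have its log2 fold of -0.44 subtracted.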
